A study of Mus musculus with 2 samples.

Results

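The genes described are Wwc1 and 9 further genes of the Hippo pathway, 10 of the 27179 genes listed for both libraries. They were taken by symbol and were chosen with earlier results of these counts known. Wwc1 was selected on its own values, 0 in the wild-type library against 254 in the Ucp1-KO library, so that contrast is a description of the gene and not a test. The other members were taken by pathway role: Wwc2 and Nf2 upstream, the kinases Lats1 and Lats2, the coactivators Yap1 and Wwtr1, their DNA-binding partner Tead1, and the target genes Ccn1 and Ccn2. All 10 had a mean normalised count of at least 10 and are among the 15212 genes examined.

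The Hippo pathway is a kinase cascade that restrains tissue growth and responds to cell contact, cell shape and matrix stiffness. The kinases MST1 and MST2 activate LATS1 and LATS2, and these phosphorylate the coactivators YAP and TAZ, which are then held in the cytoplasm or degraded. Unphosphorylated YAP and TAZ enter the nucleus, bind TEAD proteins and turn on genes such as Ccn1 and Ccn2. In fat tissue YAP and TAZ are known for restraining adipocyte differentiation of precursor cells. Much of this control acts on the proteins, which were not measured here.

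RNA was sequenced from interscapular brown adipose tissue (iBAT), the thermogenic fat depot of the upper back. A wild-type library and a Ucp1-KO library were made, the latter from mice without a functional gene for uncoupling protein 1 (UCP1). Both came from untreated C57BL/6N animals aged 20 days, which the study describes as male, and each library pooled the tissue of 3 animals. With 1 library per genotype there is no spread between animals, no SD and no p-value, and every difference is between these pools. In whole tissue, fewer cells of a type and less RNA per cell cannot be told apart.

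The wild-type library held 52950913 counts and the Ucp1-KO library 53216727. Ucp1, the targeted gene, had 366473 counts in the wild-type pool against 37853 in the Ucp1-KO pool, 12.7% of the wild-type level after normalisation. The sex-linked transcripts went against the description of the animals. Of the Y chromosome, Ddx3y, Uty, Kdm5d and Eif2s3y were at 0 in wild-type and at 491 to 3446 counts in Ucp1-KO, while Xist, made from an inactive X chromosome, had 32380 and 16478 counts. The pools therefore differed in sex-linked transcripts as well as in genotype, and the parts of the 2 in any difference below cannot be told apart. Markers of other cell types differed too. Each of the 18 skeletal muscle markers was lower in Ucp1-KO by 2-fold or more (log2 -3.92 to -1.87), and their summed level was 6176 CPM, the count after every library total is set equal, in wild-type and 706 CPM in Ucp1-KO. After normalisation the sum in Ucp1-KO was 0.141 of that in wild-type. The part of these markers in the differences of the pathway genes was not tested.

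Counts were divided by median-of-ratios size factors, and a difference is given as the log2 ratio of Ucp1-KO over wild-type with its 95% counting interval. Most low counts were even, so each read pair was taken to give 2 counts, and intervals were computed on read pairs. They cover counting error only. Under scaling to total counts the median of all genes lay 0.31 lower on the log2 scale (-0.31). It lay at -0.01 when the mitochondrially encoded genes, with 22.4% of wild-type counts and 36.7% of Ucp1-KO counts, were left out of the totals. Differences under total-count scaling are read against that shift. Sums in CPM are scaled to totals and carry it too, so the ratio after normalisation is given beside them.

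Sequence upstream of the start site is shown for Wwc1, the most unequal of the 10 genes, and for Ccn1, a target gene, because TEAD proteins act through the short element GGAATG, or CATTCC on the other strand. Each run is the 250 bases before the start of the canonical transcript in the GRCm39 genome with GENCODE release M39, 5′ to 3′ in the direction of the gene, with the element in capitals. Wwc1 lies at chr11:35871640-35871889 on the minus strand and Ccn1 at chr3:145355739-145355988, also on the minus strand.
Wwc1: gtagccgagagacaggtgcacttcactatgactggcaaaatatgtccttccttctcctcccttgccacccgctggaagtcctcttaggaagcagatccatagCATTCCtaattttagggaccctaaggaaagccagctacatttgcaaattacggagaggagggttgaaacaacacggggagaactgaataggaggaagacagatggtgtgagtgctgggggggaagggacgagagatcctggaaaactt
Ccn1: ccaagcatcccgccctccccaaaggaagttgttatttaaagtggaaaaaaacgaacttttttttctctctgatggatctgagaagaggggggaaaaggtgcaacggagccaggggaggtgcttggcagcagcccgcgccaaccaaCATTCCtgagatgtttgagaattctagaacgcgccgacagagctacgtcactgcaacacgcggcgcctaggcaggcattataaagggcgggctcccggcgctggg
The Wwc1 window held the element once, from -148 to -143 of the start, in the CATTCC orientation. Ccn1 held it once from -105 to -100 in the same orientation.

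At least 1 copy stood in 6 of the 9 windows searched: those of Wwc1, Wwc2, Yap1, Wwtr1, Tead1 and Ccn1. The windows of Lats1, Lats2 and Nf2 held none. Across 21729 windows of protein-coding genes the share with a copy was 12.1%, and 0.930% held at least 2, as the Wwc2 window did. The CArG box, the element bound by SRF, was in none of the 9 windows and in 1.40% of all. A match is a stretch of letters and not a measured binding site, and TEAD binding was not measured here.

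Wwc1 (Entrez gene 211652) encodes KIBRA, a WW-domain scaffold that works with NF2 and the Sav1 product to activate the LATS kinases at the cell cortex. The gene spans chr11:35729216-35871639 on the minus strand of GRCm39, with 23 exons and a canonical transcript of 4827 bases, and no exon of another annotated gene overlaps its exons. Wild-type had 0 counts, which allows up to 3 read pairs, or 0.113 CPM, and Ucp1-KO had 254 counts (95% Poisson interval 212 to 302), or 127 read pairs. Against that limit of 3 read pairs, Wwc1 at its count of 254 was at least 52.1-fold higher in Ucp1-KO, 5.70 on the log2 scale. The exact counting interval, which also holds the error of the 254 counts, had its lower end at 41.8-fold, 5.38 on the log2 scale, and at 5.08 with total-count scaling. Its level in Ucp1-KO was 3.31 TPM (counts per transcript length, scaled to equal library totals), the lowest of the 10 genes in that library. The ratio is thus very unequal while the level reached is low.

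**Figure D1:**
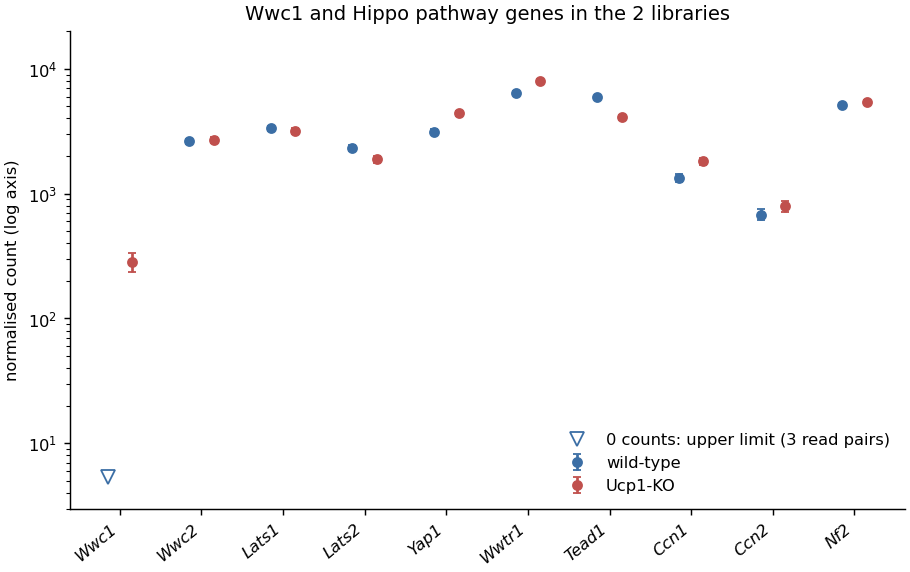
Normalised counts (log axis) of the 10 genes in the wild-type and the Ucp1-KO library, 1 point per library, with 95% Poisson intervals on read pairs as bars and the limit of 3 read pairs in place of the 0 of Wwc1. Wwc1 is the gene whose 2 libraries lie far apart, while the other 9 genes lie between 679 and 7981 normalised counts in both.

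Few genes shared the pattern of 0 counts in wild-type with many in Ucp1-KO. For the 785 genes at 0 in wild-type that had any count in Ucp1-KO the median was 4, and 5 genes had at least 254. These 5 were Ddx3y, Uty, Kdm5d and Eif2s3y, with 3446, 798, 570 and 491 counts, and Wwc1. Likeness here means only that both genes had 0 counts in the same library, over 2 libraries. Wwc1 was thus the most counted of them outside the Y chromosome. The next genes, chosen after their values were seen, were S100g on the X chromosome with 147 counts and Tacr2 on chromosome 10 with 112. In the other direction 1148 genes had 0 counts in Ucp1-KO and at least 1 in wild-type, and their highest count was 89.

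**Figure D2:**
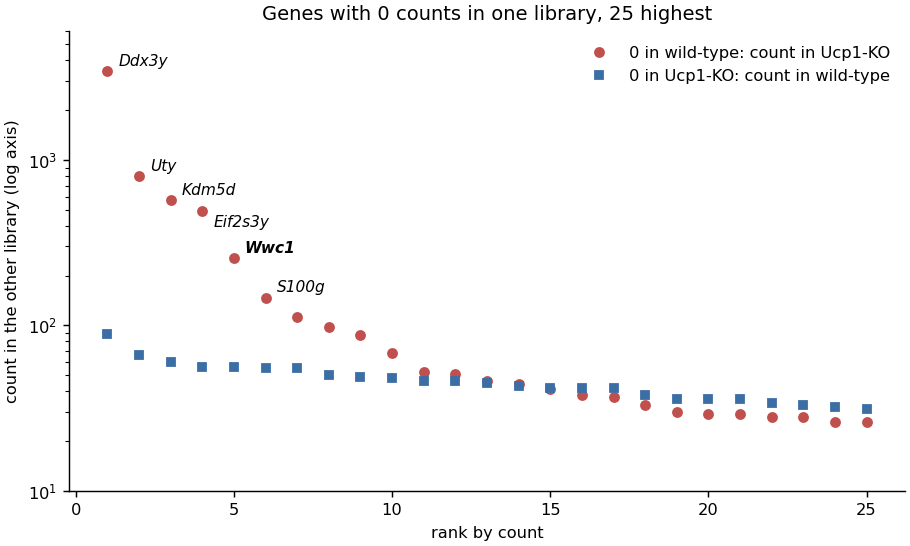
Counts (log axis) of the 25 most counted genes that had 0 counts in wild-type, by their count in Ucp1-KO, and of the 25 that had 0 counts in Ucp1-KO, by their count in wild-type, against rank. Wwc1, at 254 counts, follows the 4 Y-linked genes, and the highest gene of the other set stands at 89.

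The genes next to Wwc1 on chromosome 11 did not share its pattern. Rars1, the arginyl-tRNA synthetase gene 3.84 kb away, had 1789 counts in the wild-type pool against 1697 in the Ucp1-KO pool (log2 ratio 0.22, 0.086 to 0.36). Pank3, a pantothenate kinase gene 47.1 kb away, had 10049 and 5452 counts (log2 ratio -0.58, -0.65 to -0.51). Between them Fbll1 was listed at 0 in both libraries. On the other side Tenm2, 25.8 kb away, had 14 and 24 counts, and the interval of its log2 ratio (1.05) ran from -0.38 to 2.66. The next 2 genes of the tables on that side lay 2427 and 4698 kb away, Gm12130, listed at 0 in both libraries, and Mat2b, at 4242 and 3391 counts (log2 ratio -0.02, -0.12 to 0.07).

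KIBRA is known from kidney, brain and epithelia, and epithelial markers had few counts in both libraries. Of 14 such markers 7 had 0 counts in both, among them Epcam, Krt8, Krt5 and Krt14, and all 14 together had 97 counts in the wild-type pool against 145 in the Ucp1-KO pool. Ovol1 gave most of these, with 68 and 121 counts (log2 ratio 1.12, 0.50 to 1.78), and Cldn3 gave 4 and 16 (2.15, -0.03 to 5.57). These were the 2 examined, both at least 2-fold higher in Ucp1-KO (7.42% over all genes examined). Of the rest Krt19 had 9 and 2 counts, Krt18 8 and 0, Cldn4 4 and 0, Cldn7 4 and 2 and Cdh1 0 and 4, each within counting error. The part of epithelial RNA in the Wwc1 value was not tested. The summed level of the epithelial markers was 1.83 CPM in wild-type and 2.72 CPM in Ucp1-KO. After normalisation it was 1.84-fold that of wild-type in Ucp1-KO. The 12 Schwann cell and neuron markers summed to 193 CPM in wild-type and 106 CPM in Ucp1-KO (0.678 of wild-type after normalisation), most of it from S100b with 6583 and 3439 counts (log2 ratio -0.64), while Mbp was at 0.11. The neuron markers of that list went both ways, and those named next were chosen after their values were seen. Uchl1 had more counts in Ucp1-KO, 22 and 104 (log2 ratio 2.51, 1.58 to 3.63). Snap25 with 0 and 8 and Th with 6 and 12 were also higher but lay within counting error. Ncam1 had fewer counts in Ucp1-KO, 174 and 99, as did Prph with 8 and 0, Tubb3 with 6 and 1 and Dbh with 2 and 0. Each of these lower values lay within counting error. The part of neural RNA in the Wwc1 value was not tested. Mesothelial markers gave 189 and 127 counts, most of them from Lrrn4 with 140 and 113 and Gpm6a with 40 and 12, and Msln, Upk3b, Wt1 and Bnc1 were at 0 in both.

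Wwc2, the paralogue of Wwc1, showed no difference beyond counting error. It had 2912 counts in the wild-type pool (2764 to 3066) against 2422 in the Ucp1-KO pool (2287 to 2562), a log2 ratio of 0.03 (-0.08 to 0.14) that became -0.27 with total-count scaling. At 254 counts against 2422, Wwc1 had 0.105 of the Wwc2 count in Ucp1-KO. Per length, Wwc2 stood at 20.2 TPM in wild-type and 17.5 TPM in Ucp1-KO. Its exons overlap those of Cldn22 on the opposite strand.

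Nf2 encodes merlin, the membrane-linked scaffold that recruits the LATS kinases. It had 5682 counts in the wild-type pool (5475 to 5895) against 4908 in the Ucp1-KO pool (4716 to 5106). The log2 ratio was 0.09 (0.0099 to 0.17), small and barely beyond counting error, and it was -0.22 with total-count scaling. At 72.8 TPM in wild-type and 65.4 TPM in Ucp1-KO, Nf2 was among the more abundant of the 10 transcripts.

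The LATS kinases are the last step of the cascade before YAP and TAZ, and both genes gave lower values in Ucp1-KO. Lats1 had 3715 counts in the wild-type pool (3548 to 3888) against 2863 in the Ucp1-KO pool (2717 to 3015), a log2 ratio of -0.08 (-0.18 to 0.02) that lay within counting error. Computed on counts as deposited, its interval ran from -0.15 to -0.0055, wholly below 0. Lats2, itself a target gene of YAP and TAZ, had 2559 counts (2421 to 2703) and 1702 (1590 to 1820), and its log2 ratio of -0.29 (-0.42 to -0.16) put Ucp1-KO at 81.9% of wild-type. The Lats2 count was 0.689 of the Lats1 count in wild-type and 0.594 in Ucp1-KO. Lats1 shares exonic sequence with Pcmt1 on the opposite strand, and Lats2 with Gm49361 on its own strand. Gm49361 is not among the genes counted under that symbol. How reads shared by Lats1 and Pcmt1 were treated is not given in the sources used here.

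Both coactivator genes were higher in Ucp1-KO. Yap1 had 3466 counts in the wild-type pool (3305 to 3633) against 3956 in the Ucp1-KO pool (3784 to 4134), 1.40-fold higher after normalisation, a log2 ratio of 0.49 (0.40 to 0.58). Wwtr1, which encodes TAZ, had 7088 (6857 to 7325) and 7194 (6961 to 7433) counts, 1.25-fold higher, a log2 ratio of 0.32 (0.25 to 0.39). With total-count scaling these log2 ratios were 0.18 for Yap1, still beyond counting error, and 0.014 for Wwtr1, within it. Of all genes examined 18.6% had a log2 ratio above that of Yap1, so its value is not rare in this pair of libraries.

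Tead1, the DNA-binding partner, differed the other way, with median-of-ratios scaling by a size close to that of Yap1. With total-count scaling the log2 ratios were -0.83 for Tead1 and 0.18 for Yap1. Tead1 had 6546 counts in the wild-type pool (6324 to 6774) against 3700 in the Ucp1-KO pool (3533 to 3873), a log2 ratio of -0.52 (-0.61 to -0.44) that put Ucp1-KO at 69.6% of wild-type. The Tead1 count was 1.89 times the Yap1 count in wild-type and 0.935 times in Ucp1-KO, a ratio within each library that needs no scaling. Per canonical transcript length Yap1 was above Tead1 in both libraries. With all annotated exons as the length Tead1 was above Yap1 in wild-type, at 57.1 and 43.8 TPM, and below it in Ucp1-KO, at 30.0 and 46.4. TEAD1 is also abundant in skeletal muscle, whose markers, such as Acta1 with 76457 and 5916 counts and Myh4 with 57748 and 6751, were lower in the same library. The part of muscle RNA in the Tead1 value was not tested.

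Ccn1 and Ccn2 encode the secreted matricellular proteins CYR61 and CTGF and are the usual readouts of YAP and TAZ activity. Ccn1 (chr3:145352720-145355738, minus strand, 5 exons) had 1490 counts in the wild-type pool (1385 to 1601) against 1635 in the Ucp1-KO pool (1525 to 1751), 1.35-fold higher, and with total-count scaling its log2 ratio of 0.43 (0.29 to 0.58) became 0.13, within counting error. Ccn2 had 753 (679 to 833) and 712 (640 to 790) counts, a log2 ratio of 0.22 (0.0058 to 0.43) that became -0.09 with total-count scaling. The Ccn2 value was thus at the edge of counting error. Relative to Yap1 within each library, the Ccn1 count was 0.430 in wild-type and 0.413 in Ucp1-KO, and the Ccn2 count 0.217 and 0.180. Ccn1 exons overlap those of the antisense transcript Gm17501.

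Across the 10 genes, 1 was at least 2-fold higher in Ucp1-KO, Wwc1, and none was at least 2-fold lower. The background over all 15212 genes examined was 7.42% higher by that size and 9.55% lower by it. For Wwc1 that contrast was the one that selected it, so its place in the count is read no further. By the counting interval alone, 6 of 10 lay above 0 (Wwc1, Nf2, Yap1, Wwtr1, Ccn1 and Ccn2), 2 below (Lats2 and Tead1) and 2 across 0 (Wwc2 and Lats1). The background for these counts was 31.5% of all genes above 0 and 30.5% below. Wwc1 stands in these counts and in the median of the 10 by the values that selected it. The intervals of Ccn2 and Nf2 reached 0 with TMM factors and with totals without mitochondrially encoded genes, which left 4 of 10 above 0 and 2 below. With total counts 2 were above, Wwc1 and Yap1, and 5 below, beside 14.5% and 53.8% of all genes. The median log2 ratio of the 10 was 0.15, against -0.0016 over all genes examined, and it was -0.15 with total-count scaling. Without Wwc1 the 9 genes had a median of 0.088. They ran from -0.52 to 0.49, a size within which 62.6% of all genes examined lay.

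**Figure D3:**
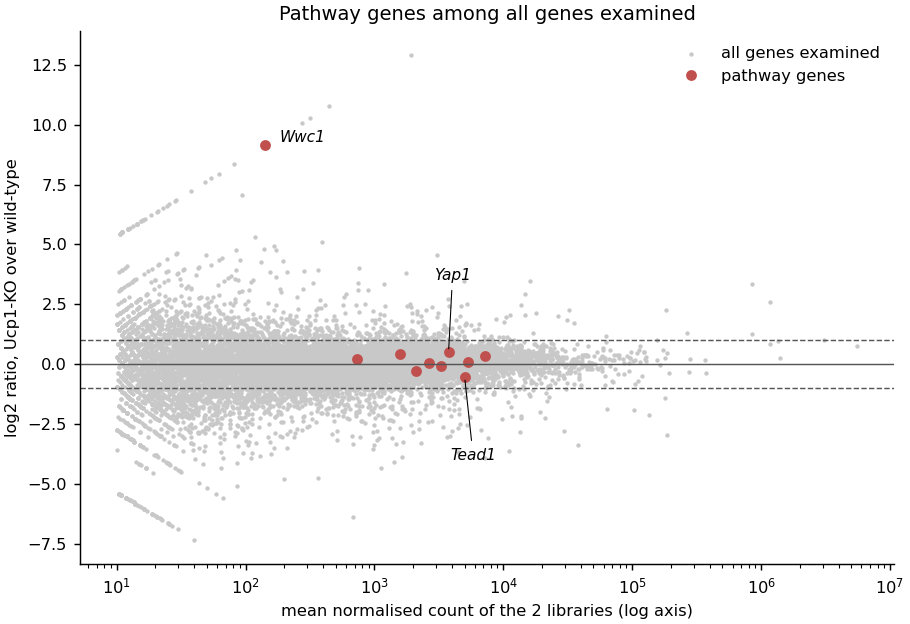
Log2 ratio of Ucp1-KO over wild-type against mean normalised count (log axis) for the 15212 genes examined, in grey, with the 10 pathway genes marked. Wwc1 stands high at its fitted value of 9.14, which depends on the pseudocount and is no bound, while the other 9 lie between -0.52 and 0.49, inside the bulk of the genes.

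**Figure D4:**
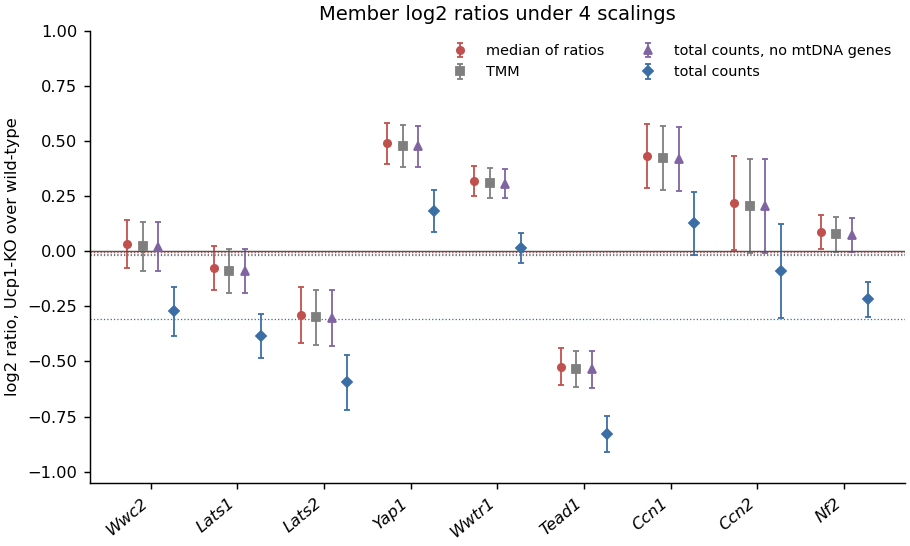
Log2 ratio of Ucp1-KO over wild-type for the 9 genes other than Wwc1 under 4 scalings, with 95% counting intervals as bars and the median of all genes under each scaling as a dotted line. Total-count scaling places every gene lower, which takes Wwc2, Ccn2 and Nf2 from above to below 0, while the other 3 scalings lie close together.

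Compared per transcript length, the genes kept nearly the same order in both libraries. Wwtr1 was highest in TPM (91.2 in wild-type, 96.3 in Ucp1-KO), followed by Nf2, Yap1 (50.1 and 59.5) and Ccn1 (44.3 and 50.6). In wild-type these were followed by Tead1 at 39.7 TPM, Lats1 at 30.2, Lats2 at 28.2, Wwc2 at 20.2, Ccn2 at 16.7 and Wwc1 at 0. In Ucp1-KO Lats1 at 24.2 TPM preceded Tead1 at 23.4, followed by Lats2 at 19.5, Wwc2 at 17.5, Ccn2 at 16.4 and Wwc1 at 3.31. Counting intervals of neighbours overlapped for Lats1 and Lats2 in wild-type, and in Ucp1-KO for Lats1 and Tead1, Lats2 and Wwc2, and Wwc2 and Ccn2. TPM rested on the canonical transcript. With all annotated exons as the length, Ccn1 moved to the top at 86.8 TPM in wild-type and 88.5 in Ucp1-KO. In wild-type Tead1 (57.1) was then above Yap1 (43.8), and Ccn2 (28.0) above Wwc2 (20.4). In Ucp1-KO Tead1 (30.0) was then above Lats1 (25.1), and Ccn2 (24.6) above Lats2 (17.9) and Wwc2 (15.7).

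Among 31 upstream regulators, 26 were examined, 9 lay above counting error in Ucp1-KO and 7 below (31.5% and 30.5% over all genes examined, as for the lists that follow), with a median log2 ratio of 0.0014 (-0.31 with total-count scaling). Dchs2 was not found under that symbol, and Crb1 had 0 counts in both libraries. Apart from Wwc1, the gene at least 2-fold higher was Fjx1, a Golgi kinase that acts on FAT and Dachsous cadherins, with 44 and 89 counts (log2 ratio 1.31, 0.55 to 2.12). Amot, an angiomotin that binds YAP, had 1414 counts in the wild-type pool against 401 in the Ucp1-KO pool (log2 ratio -1.52, -1.75 to -1.29), and its paralogue Amotl1 had 6639 and 4566 (-0.24). The atypical cadherin gene Fat4 had 1801 and 580 counts (log2 ratio -1.33, -1.53 to -1.14). Amot and endothelial markers were lower in the same library: 11 of 12 of those markers lay below counting error, and they summed to 2601 CPM in wild-type and 1282 CPM in Ucp1-KO (Kdr at a log2 ratio of -0.87, Pecam1 at -0.47). After normalisation the sum of these markers in Ucp1-KO was 0.610 of that in wild-type. Their part in the Amot value was not tested.

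Among 20 kinases and adaptors, 19 were examined, 6 above counting error and 8 below, and the median log2 ratio was -0.20, or 0.10 when the counts of the list were summed. Map4k6 was not found under that symbol. Sav1, the scaffold of the MST kinases, had 5347 counts in the wild-type pool against 7752 in the Ucp1-KO pool, a log2 ratio of 0.84 (0.76 to 0.91). Map4k2 and Tnik, kinases that can act beside the MST kinases on LATS, were at least 2-fold lower in Ucp1-KO, with 2685 and 1058 counts for Map4k2 and 309 and 113 for Tnik (log2 ratios -1.04 and -1.15). Map4k4, the most counted kinase of the list, had 7643 and 6900 counts (log2 ratio 0.15). The genes of the MST kinases themselves, chosen after their values were seen, lay within counting error, Stk4 at 1869 and 1523 counts and Stk3 at 910 and 645. The LATS cofactor genes, chosen likewise, went opposite ways, Mob1b at 1328 and 1815 counts (log2 ratio 0.75) and Mob1a at 1334 and 928 (-0.22).

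The STRIPAK complex is a phosphatase assembly that holds the MST kinases inactive. Of its 11 genes 7 lay above counting error and 1 below (31.5% and 30.5% over all genes examined), with a median log2 ratio of 0.18. With total-count scaling 1 lay above and 6 below, beside 14.5% and 53.8% of all genes examined. The median of the list was then -0.13, against -0.31 over all genes examined. Strip2 was the gene at least 2-fold different, with 133 counts in the wild-type pool against 550 in the Ucp1-KO pool, a log2 ratio of 2.34 (1.96 to 2.76). The phosphatase subunit genes Ppp2ca and Ppp2r1a, the most abundant of the list, had log2 ratios of 0.33 and 0.28. The 7 genes for 14-3-3 proteins, which retain phosphorylated YAP and TAZ in the cytoplasm, had a median of -0.14, with Ywhag at 0.01 and Ywhae at 0.23.

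Of the 10 genes for YAP, TAZ, TEADs and their cofactors, 9 were examined, 2 above counting error (Yap1 and Wwtr1) and 4 below. Their median log2 ratio was -0.11. Vgll1 had 0 counts in both libraries. The 4 below were Tead1, Tead2 with 603 and 304 counts (log2 ratio -0.69), Vgll4 with 1097 and 450 (-0.99), a TEAD cofactor that competes with YAP, and Vgll2 with 54 and 9 (-2.23), named after their values were seen. Vgll2 is a cofactor of skeletal muscle, and the muscle markers were lower in the same library. Tead3 and Tead4, chosen likewise, had log2 ratios of -0.02 and -0.11, each with an interval across 0.

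The wider set of YAP and TAZ target genes showed no common direction. Of 22 genes 21 were examined, 8 above counting error, 9 below and 4 across 0, and their median log2 ratio was 0.0027 (-0.30 with total-count scaling). Nt5e, the ecto-nucleotidase CD73, had 145 and 249 counts (log2 ratio 1.08, 0.65 to 1.52) and Fjx1 was likewise at least 2-fold higher in Ucp1-KO. Igfbp3, the most counted target, had 6401 and 4000 counts (log2 ratio -0.38, -0.46 to -0.30), and Amotl2 had 4712 and 3220 (-0.25). Ankrd1, another usual readout, had 20 and 8 counts, too few to place its log2 ratio of -0.98 on either side of 0. It was chosen after its values were seen. Ccn1 and Ccn2 thus lay on the higher side of a list that was divided. Of the 6 CCN family genes 5 were examined, with 2 above counting error, Ccn1 and, barely, Ccn2, and none below. Ccn5, named after its values were seen, was past 2-fold lower with 26 and 6 counts, an interval that reached 0.

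Ccn1 and Ccn2 also respond to serum response factor (SRF) and belong with the immediate early genes, so both groups are given beside them. The 12 SRF target genes had a median log2 ratio of -0.69, with 2 above counting error and 8 below. Tpm2 had 21257 counts in the wild-type pool against 3814 in the Ucp1-KO pool (log2 ratio -2.18) and Acta2 4982 and 1989 (-1.02), Tpm1 had 18036 and 6687 (-1.13), Flna was at -0.06, and Cnn1 was higher, with 230 and 677 (1.85). These contractile genes are shared with muscle and smooth muscle, whose markers were lower in the same library. The 22 immediate early genes, of which 20 were examined, had a median of 0.58 (0.27 with total-count scaling), with 12 above counting error and 6 below (31.5% and 30.5% over all genes examined). By 2-fold or more, 7 were higher (7.42% over all genes). Atf3 had 274 and 5320 counts (log2 ratio 4.58), Nr4a3 64 and 552 (3.40), Egr1 666 and 1890 (1.80) and Fosb 46 and 130 (1.79), while the abundant Klf6 and Klf4 had log2 ratios of 0.07 and -0.09. The handling of tissue before RNA extraction is not given in the sources used here, and the part of these groups in the Ccn1 and Ccn2 values was not tested.

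The other cell types in which YAP, TAZ and TEAD genes are active were also measured by their markers. The 13 preadipocyte and fibroblast markers had a median log2 ratio of -0.16 and summed to 2122 CPM in wild-type and 1556 CPM in Ucp1-KO, led by the collagen genes Col3a1 (-0.07) and Col1a1 (-0.12). After normalisation their sum in Ucp1-KO was 0.907 of that in wild-type. The 10 pericyte and smooth muscle markers had a median of -0.69 and summed to 631 and 379 CPM (0.743 of wild-type after normalisation), with Abcc9 at -0.70 and Mcam at 0.49. The part of these cell types in the Yap1, Wwtr1 and Ccn1 values was not tested. The 12 macrophage markers had a median of 0.19, with Lyz2 at 0.81 and Mrc1 at 0.25, and the 12 brown adipocyte markers of 0.37, with Fabp4 at 387360 and 350385 counts.

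**Figure D5:**
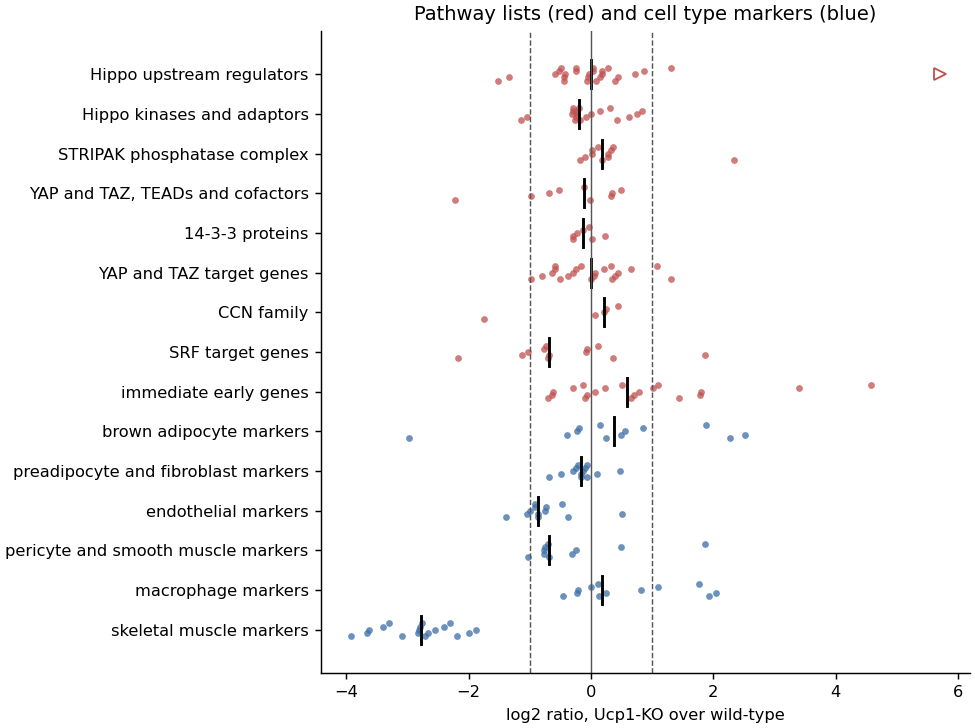
Log2 ratio of Ucp1-KO over wild-type for each examined gene of the pathway lists (red) and of cell type marker lists (blue), 1 point per gene, with the list's median as a bar and an open triangle at 5.70, the value of Wwc1 against the limit of 3 read pairs. The list of the members and the epithelial, mesothelial, and Schwann cell and neuron marker lists are not drawn. The pathway lists spread on both sides of 0 with medians from -0.69 (SRF target genes) to 0.58 (immediate early genes), while the skeletal muscle markers all lie below -1.87.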

How the data were processed

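Poly-A RNA of 2 iBAT libraries was measured, each from 3 pooled animals. The authors deposited whole-number counts per gene (featureCounts), not normalised. The submitters' processing notes name Trim Galore, HISAT2 and build mm39. Annotation, strand setting and treatment of multi-mapping reads are not given in the sources used here, so counts of overlapping and antisense genes are uncertain.

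Groups were taken from the genotype labels. Counts were divided by size factors of 1.11 (wild-type) and 0.901 (Ucp1-KO) from DESeq2 1.42.0 in R 4.3.3, and log2 ratios used a pseudocount of 0.5. A mean normalised count of 10 was required, which left 15212 genes. Among genes with 1 to 10 counts 70.7% (wild-type) and 73.4% (Ucp1-KO) were even, so counts were taken as 2 per read pair. Counts have exact Poisson intervals and ratios exact conditional binomial (Clopper-Pearson) intervals at 95%, computed with scipy 1.17.1. The limit for 0 counts was 3 read pairs, or 6 counts. Reads carried no molecular identifiers, so intervals and limits cover counting error only. Without replicates no test was run. Scripts were tested on simulated data. The 1319 genes without a symbol, with 0.156% and 0.121% of counts, were kept.

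Positions and upstream windows came from GRCm39 and GENCODE M39, joined by symbol for 24919 of 27179 genes. TPM used canonical transcript lengths. The members and gene lists were chosen with earlier results of these data known. By rule the text names all 10 members, Ucp1, up to 4 genes per list at least 2-fold different at a mean of at least 50, the 2 most abundant genes per list, 3 counted genes on each side of Wwc1, and the 5 genes most like it. Alternatives were TMM factors (edgeR 4.0.16), total counts with and without mitochondrial genes, another pseudocount, other minimum counts and size rules, intervals on counts as deposited, and summed lists. The upstream window of 1 member is not reported here. The study's other measurements were not used here.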

Additional observations from a re-analysis of the deposited data

How the results depend on the processing

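No paired analysis was possible because wild-type and Ucp1-KO share no more than 1 replicate number, with a single library on each side, and no library could be left out. Wwc1 remained at least 2-fold higher under each setting tried, and its fitted log2 ratio, 9.14, was 5.84 with a pseudocount of 5. With TMM factors or total counts without mitochondrially encoded genes the members' ratios stayed within their counting intervals, but the intervals of Ccn2 and Nf2 then reached below 0. With intervals on counts as deposited, that of Lats1 lay wholly below 0.

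Scaling to total counts moved most values down. The log2 ratios became -0.27 for Wwc2, -0.38 for Lats1, -0.60 for Lats2, 0.18 for Yap1, 0.014 for Wwtr1, -0.83 for Tead1 and 0.13 for Ccn1, and 2 values beyond counting error changed sign, Ccn2 to -0.088 and Nf2 to -0.22. The medians became -0.15 for the members, -0.31 for upstream regulators, -0.50 for kinases and adaptors, -0.13 for STRIPAK, -0.42 for YAP, TAZ, TEADs and cofactors, -0.44 for 14-3-3 proteins, -0.30 for target genes, -0.997 for SRF targets and 0.27 for immediate early genes. Genes at least 2-fold different were then 765 higher and 2262 lower, 25.3% of them higher, against 1128 and 1453 (43.7% higher). Without a minimum count 2187 were higher and 2844 lower, and the immediate early median was 0.37. With a minimum mean of 50 they were 617 and 811. With a log2 ratio of 1.5 as the size rule they were 603 and 796, and by the counting interval alone 4791 and 4641. Summing counts gave 0.097 for kinases and adaptors, -0.054 for 14-3-3 proteins and 0.34 for immediate early genes. The genes counted were 18319 without a minimum and 12846 with a minimum mean of 50, against 15212. What part this had in the changed counts was not tested. With total counts the median over all genes lay at -0.31. In all, 105 alternative values stayed on their side or within their spread, and 29 moved further. Depth limits genes of few counts such as Ankrd1, Tenm2 and Ccn5, whose intervals span 0.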
